A study of Mus musculus with 10 samples.

Results

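Interferon-stimulated genes are the genes that a cell switches on when interferon binds its receptors. A fixed list of 49 such genes was followed in splenic CD8+ conventional dendritic cells type 1 (CD8+ cDC1) from mice with and without the phosphatase Ppef2. The members were taken by gene symbol, and 45 of the 49 had a row among the 10767 genes of the deposited table, whereas Oas2, Rtp4, Gbp6 and Gbp7 were not analysed here. CD8+ cDC1 were sorted as CD11c+ MHCII+ CD8+ CD11b- cells from spleens of untreated, age- and sex-matched mice. There were 5 sorts, and each gave 1 Ppef2+/+ and 1 Ppef2-/- library from 3 pooled mice, so that there were 5 libraries per genotype. Ppef2-/- mice carry a gene trap in every cell, made in JM8A3.N1 embryonic stem cells and crossed with C57BL/6 mice, and Ppef2+/+ mice carry the intact allele. The cells came from the unperturbed spleen, and the levels below are those of the steady state.

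Type I interferons signal to the interferon-stimulated response element (ISRE), which is bound by a complex that holds Stat2 and Irf9, whereas type II interferon signals to the gamma-activated site (GAS). The induced proteins sense viral nucleic acids, block steps of viral replication or attack the vacuoles of intracellular pathogens. Dendritic cells hold part of this programme at a resting level, and cDC1 depend on interferon signals for full cross-priming of CD8+ T cells. The guanylate binding proteins and the immunity-related GTPases are best known for their strong response to type II interferon.

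The promoters of the members carried the elements of this pathway more often than other promoters did. RefSeq promoter windows of build GRCm38.p6, from 250 bases before to 50 bases after the start of a gene, were matched for 36 of the 45 members. On either strand, 21 of these 36 (58.3%) held the ISRE core TTCNNTTTC, against 730 of 8275 (8.82%) of the other genes in the table. The GAS core TTCNNNGAA was found in 11 of 36 members (30.6%) and in 671 of the other genes (8.11%), and a window with both cores in 7 members (19.4%) and 70 of the other genes (0.846%). The ISRE core was present in all 4 matched sensors, in 2 of 2 guanylate binding proteins and in 4 of 5 immunity-related GTPases. It was in 2 of 2 genes of the Isg15 group, 5 of 8 antiviral effectors and 2 of 4 oligoadenylate synthetase genes. It was rarer in the transcription factors (1 of 4), the other members (1 of 5) and the Parp and Dtx genes (0 of 2). The GAS core was in 3 of the 5 immunity-related GTPases, 2 of 4 sensors and 0 of 2 guanylate binding proteins. A match describes letters in a window and does not show that a factor binds there.

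Below, the 130 bases before the RefSeq gene start are given in the direction of transcription. They are shown for the 3 members with the smallest p-values (Gbp2, Tgtp1 and Ifi47), and for Irgm1, Isg15 and Irf1 as further examples. The GENCODE M21 ranges of Gbp2, Tgtp1 and Irgm1 begin further upstream. The windows of Tgtp1 and Irgm1 lie inside those ranges, and that of Gbp2 lies partly inside. Capitals mark ISRE and GAS cores.
Gbp2, chr3:142620533-142620662, plus strand: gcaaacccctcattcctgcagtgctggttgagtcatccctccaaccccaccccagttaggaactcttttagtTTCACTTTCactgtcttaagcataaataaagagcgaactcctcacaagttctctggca
Tgtp1, chr11:48992247-48992376, minus strand: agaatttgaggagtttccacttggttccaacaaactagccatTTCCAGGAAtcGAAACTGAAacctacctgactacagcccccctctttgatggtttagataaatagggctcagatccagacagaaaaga
Ifi47, chr11:49076457-49076586, plus strand: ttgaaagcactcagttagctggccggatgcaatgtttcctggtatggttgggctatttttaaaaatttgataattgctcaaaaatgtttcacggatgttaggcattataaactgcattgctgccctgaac
Irgm1, chr11:48871421-48871550, minus strand: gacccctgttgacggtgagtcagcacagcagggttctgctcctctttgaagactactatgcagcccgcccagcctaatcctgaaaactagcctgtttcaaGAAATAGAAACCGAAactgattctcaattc
Isg15, chr4:156200819-156200948, minus strand: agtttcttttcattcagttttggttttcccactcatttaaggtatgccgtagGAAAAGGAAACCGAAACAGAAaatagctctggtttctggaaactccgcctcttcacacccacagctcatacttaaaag
Irf1, chr11:53769884-53770013, plus strand: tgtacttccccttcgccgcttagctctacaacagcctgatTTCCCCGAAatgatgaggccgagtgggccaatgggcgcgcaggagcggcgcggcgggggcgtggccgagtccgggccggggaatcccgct
Gbp2 had 1 ISRE core close to its RefSeq start, Irgm1 had 2 and Isg15 had 3 that overlap. Tgtp1 had a GAS core 2 bases away from an ISRE core, Irf1 had a GAS core, and Ifi47 had neither core in its window.

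In the libraries, Ppef2 itself was counted with 95 to 228 reads in the 5 Ppef2+/+ libraries and with 0 to 8 reads in the 5 Ppef2-/- libraries. Reads of the 9657 genes for which whole reads could be calculated added up to 1415195 to 2304079 per Ppef2+/+ library and 1528516 to 4469469 per Ppef2-/- library. Ppef2-/- libraries were deeper in sorts 1 to 3 and shallower in sorts 4 and 5, and the part of depth in the results was not tested. All 17 cDC1 markers had a row, and their summed deposited values were 92200 to 95500 in Ppef2+/+ and 92300 to 95600 in Ppef2-/- libraries. The deposited values have the mean of each sort removed, which narrows such ranges. Of the markers of other cells, sums are given here with the sort means kept, over the markers with whole reads. Those of plasmacytoid dendritic cells, which are strong producers of interferon, overlapped between genotypes. Their sums over 12 of 14 markers were 1970 to 2400 in Ppef2+/+ and 1870 to 2310 in Ppef2-/- libraries. Of the 12, 5 had a positive log2 difference. Siglech and Tcf4 were lower in Ppef2-/- at an unadjusted p under 0.05 in limma, with 1.99% lower among all genes. The lowest adjusted p of the 12 was 0.711. The 1 measured T and NK cell marker of 12 had 32.3 to 43.8 and 29.6 to 57.3, the 4 of 11 B cell markers 275 to 439 and 335 to 401, the 2 of 9 neutrophil markers 17.6 to 34.1 and 12.7 to 26.5, and the 5 of 10 erythroid and platelet markers 119 to 278 and 189 to 234. None of these measured markers was at 0 reads in any library. The part of other cells in the results was not tested, and in bulk RNA fewer cells of a type and less RNA per cell cannot be told apart.

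CD8+ cDC1 expressed the interferon-stimulated genes at very different levels. Levels are normalized counts, in which the reads of a library are multiplied by a factor for its depth. Per kb of exon, the highest mean over 10 libraries was that of Ifitm3, a membrane protein that blocks virus entry, with 308 normalized counts per kb, followed by Irf1 with 211, Mx1 with 210 and Ifi35 with 205. Ifitm3 thereby stood at the 93.3 percentile of all genes with a known length. At the other end were Oas3 with 1.84, the RNA sensor Ddx58 (RIG-I) with 2.85, Oasl2 with 3.39, Ifi44 with 4.29 and Ifit1 with 4.35 normalized counts per kb, all between the 1.29 and the 6.41 percentile. Other members of the Ifit and Oas families, which are among the classical targets of type I interferon, stood higher, with 30.9 for Ifit2 and 22.8 for Oasl1. On the scale not divided by length, 31 of the 45 members had a mean of 50 or more and 14 were below 50.

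No interferon-stimulated gene differed between genotypes past the threshold. In limma's moderated test with the sort as a block and Benjamini-Hochberg adjustment over 10767 genes, 0 of 45 members had an adjusted p under 0.05, compared to 0.00929% of all genes, which is Ppef2 alone. The median log2 difference of the members, Ppef2-/- minus Ppef2+/+, was 0.01, and that of all genes was 0.00. Values were above 0 in 23 members and below 0 in 22. The difference was within 0.25 on the log2 scale in 34 of 45 members (75.6%) and in 89.4% of all genes, and it exceeded 1 in 0 members. The 95% intervals lay within 0.5 on either side of 0 in 25 members and within 1 in 42 members. At an unadjusted p under 0.05, 3 members were higher in Ppef2-/- (6.67%, with 2.30% among all genes) and 0 were lower (with 1.99% among all genes). These were Gbp2, Tgtp1 and Ifi47, all GTPases, and the lowest adjusted p of any member was 0.995. When the fit ignored the sort, 0 members and 0.957% of all genes had an adjusted p under 0.05, and 9 members and 17.5% of all genes had an unadjusted p under 0.05. With the values of each library set side by side, the genotypes overlapped in all 45 members, whereas 0.538% of the 9657 genes did not overlap.

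**Figure D1:**
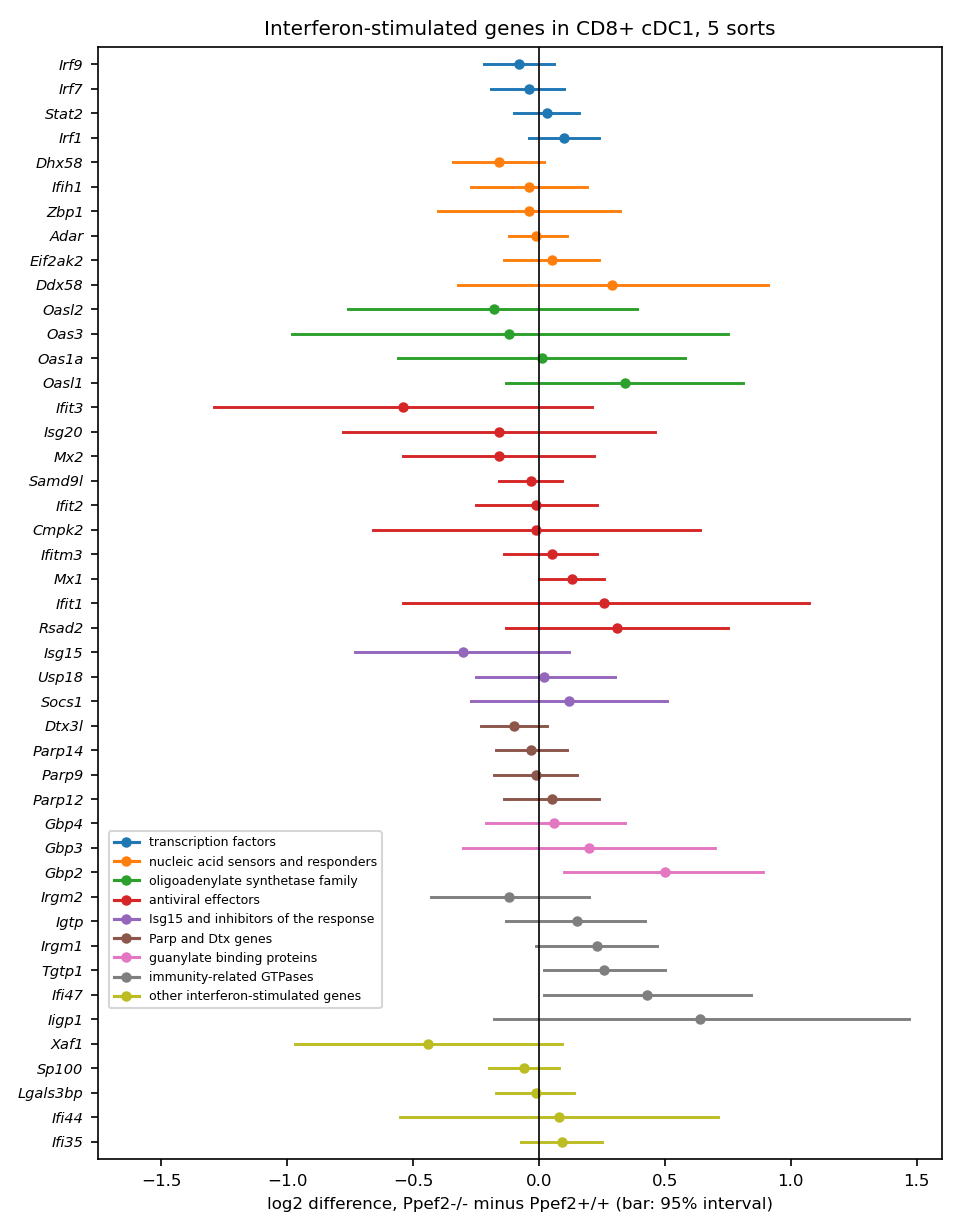
Fitted log2 difference, Ppef2-/- minus Ppef2+/+, of the 45 interferon-stimulated genes (x axis) by gene and role group (y axis). Points are the estimates over 5 sorts and bars their 95% intervals, which exclude 0 for Gbp2, Tgtp1 and Ifi47 and end at it for Mx1 (0.00 to 0.26).

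The module was also flat within each sort. The median of the 45 members, Ppef2-/- minus Ppef2+/+ on the log2 scale, was 0.00 in sort 1, -0.03 in sort 2, 0.08 in sort 3, 0.09 in sort 4 and -0.06 in sort 5, with a mean over the sorts of 0.016 ± 0.07 (SD, n = 5). The medians of all genes were between -0.01 and 0.01. Members higher in Ppef2-/- numbered 23, 19, 30, 28 and 18 of 45 in sorts 1 to 5, and among all genes the shares were 49.6%, 49.0%, 50.2%, 52.3% and 50.2%. The module median was thus positive in sorts 3 and 4 and negative in sorts 2 and 5. No member was higher in Ppef2-/- in 5 of 5 sorts, with 3.26% among all genes. Dtx3l was lower in 5 of 5 sorts, with 2.92% among all genes. Single members moved far more than the median. The differences reached from -1.38 for Ifit3 to 3.75 for Iigp1 in sort 4 and from -1.63 for Ifi44 to 1.01 for Ifit1 in sort 5. With the sort means kept, these values were -2.16 for Ifit3, 2.15 for Iigp1, -0.96 for Ifi44 and 0.96 for Ifit1, so that the removal of sort means stretched some differences and shrank others. Differences over 1 in either direction were seen in 5, 1, 1, 6 and 6 members in sorts 1 to 5. That was 11.1%, 2.22%, 2.22%, 13.3% and 13.3%, with 2.88%, 3.10%, 2.86%, 2.25% and 2.41% among all genes. With the sort means kept, the counts were 5, 1, 3, 6 and 2, with 3.48%, 3.45%, 3.39%, 2.67% and 2.52% among the genes with reads.

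**Figure D2:**
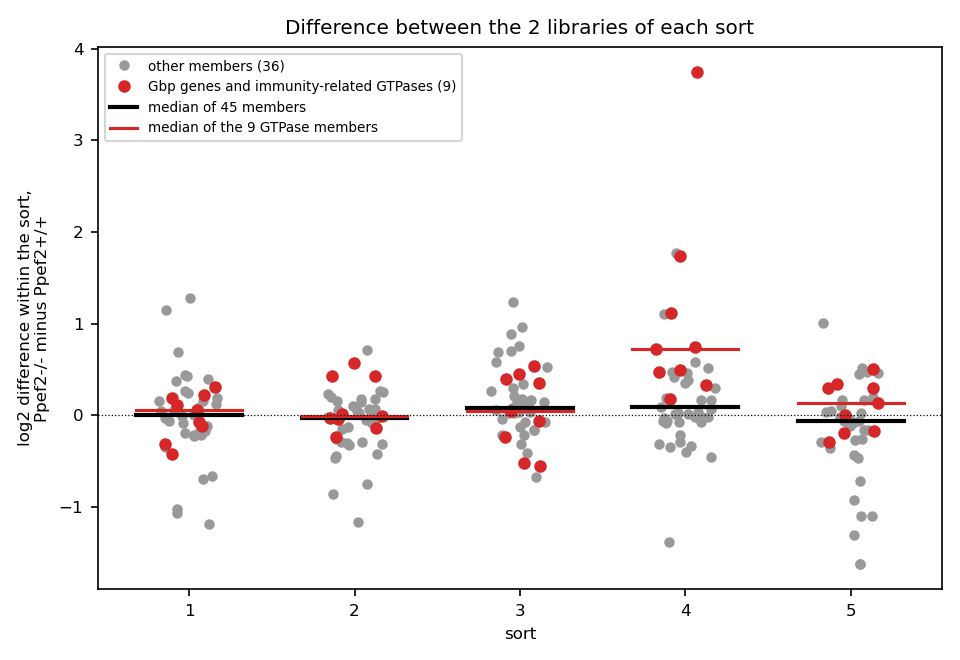
Log2 difference within a sort, Ppef2-/- minus Ppef2+/+ (y axis), for the 45 members in sorts 1 to 5 (x axis), with red points for the 9 GTPase members, grey points for the other 36 and lines for the medians. The black medians lie between -0.06 and 0.09, and the red median of sort 4 lies at 0.72.

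Among the transcription factors, Stat2 and Irf9, which act in the complex that binds the ISRE, Irf7, the amplifier of type I interferon production, and Irf1, an activator of many interferon target genes, had log2 differences between -0.08 and 0.10. Irf1 had the highest level of the 4. From sort 1 to sort 5, Ppef2+/+ libraries held 962, 818, 728, 795 and 752 normalized counts of Irf1. The values in Ppef2-/- libraries, in the same order of sorts as in all such lists below, were 834, 925, 818, 906 and 868. Irf1 was higher in Ppef2-/- in 4 of 5 sorts, by a log2 difference of 0.10 (SE 0.07, 95% interval -0.04 to 0.24), and the genotypes overlapped. The interval of Stat2 was -0.10 to 0.16.

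The sensors and responders of foreign nucleic acids had log2 differences between -0.16 and 0.29. Adar edits double-stranded RNA and was the highest of them, with 960, 924, 765, 765 and 841 normalized counts in Ppef2+/+ and 926, 895, 743, 772 and 900 in Ppef2-/- libraries. The values followed the sort in both genotypes, and the log2 difference was -0.01 (95% interval -0.12 to 0.11). Part of the Adar annotation, 14.4% of its windows of 50 bases, is shared with the overlapping gene Chrnb2. Dhx58 (LGP2), a regulator of RNA sensing, had the lowest p of the group. Its levels were 272, 251, 228, 281 and 312 in Ppef2+/+ and 267, 227, 234, 210 and 264 in Ppef2-/- libraries, lower in 4 of 5 sorts, with a log2 difference of -0.16 (SE 0.09, unadjusted p = 0.076 and adjusted p = 0.995 in limma).

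The oligoadenylate synthetase family makes the messenger that activates RNase L, whereas Oasl1 regulates antiviral signals without that activity. The 4 measured members had log2 differences between -0.18 and 0.34. Oasl1 had 35.6, 32.7, 72.2, 61.9 and 62.7 normalized counts in Ppef2+/+ libraries. In Ppef2-/- libraries it had 35.8, 40.2, 73.1, 128 and 52.0. The Ppef2-/- library of sort 4 had the highest value, and the log2 difference of 0.34 (SE 0.22) became -0.01 without sort 4 and was 0.22 with the sort means put back. Oas1a shares 57.6% of its 50-base windows with Oas1g and is uncertain.

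Of the 10 antiviral effectors, 4 had positive and 6 negative log2 differences, from -0.54 to 0.31. Mx1, a gene of the dynamin-like GTPases, was the highest by transcript level, and its protein was not measured. It had 728, 802, 675, 696 and 900 normalized counts in Ppef2+/+ and 830, 841, 790, 861 and 837 in Ppef2-/- libraries. The Ppef2-/- values lay close together inside the range of Ppef2+/+, with a log2 difference of 0.13 (SE 0.06, unadjusted p = 0.054 and adjusted p = 0.995 in limma). Ifit3, a scaffold of antiviral signalling, was at the bottom of the differences. Its levels were 13.7, 15.0, 9.02, 12.9 and 15.9 in Ppef2+/+ and 7.90, 11.2, 11.2, 2.11 and 12.3 in Ppef2-/- libraries, and the value of 2.11 rested on 2 reads. The log2 difference was -0.54 (SE 0.36), and 51.2% of the 50-base windows of Ifit3 are shared with Ifit3b, so that its value is uncertain.

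Isg15 is a ubiquitin-like modifier, Usp18 removes it and dampens the type I interferon receptor, and Socs1 inhibits the Jak kinases. Usp18 had 119, 95.4, 79.7, 103 and 116 normalized counts in Ppef2+/+ and 103, 106, 84.3, 80.3 and 148 in Ppef2-/- libraries, with a log2 difference of 0.02 (SE 0.13). Isg15 had 52.0, 58.6, 57.1, 39.7 and 87.6 in Ppef2+/+ libraries and 27.4, 47.9, 58.1, 59.2 and 47.9 in Ppef2-/- libraries. The highest value was in the Ppef2+/+ library of sort 5 and the lowest in the Ppef2-/- library of sort 1. The log2 difference was -0.30 (SE 0.20, 95% interval -0.73 to 0.12), and with 1 sort left out it ranged from -0.51 without sort 4 (unadjusted p = 0.025 in limma) to -0.10 without sort 5 (unadjusted p = 0.63).

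The Parp and Dtx genes encode ADP-ribosyl transferases and their partner, the ubiquitin ligase Dtx3l. Their log2 differences were between -0.10 and 0.05. Parp14 had 535, 521, 531, 548 and 473 normalized counts in Ppef2+/+ and 554, 500, 452, 522 and 530 in Ppef2-/- libraries, with a log2 difference of -0.03 (SE 0.07). Dtx3l had 586, 589, 463, 503 and 507 in Ppef2+/+ and 526, 555, 434, 470 and 486 in Ppef2-/- libraries. Dtx3l was lower in Ppef2-/- in every sort, by log2 differences of -0.17, -0.09, -0.08, -0.09 and -0.06 in sorts 1 to 5, although the genotypes overlapped across sorts. In an exact permutation test within sorts this gave p = 0.0625 (two-sided), the smallest p that 5 sorts allow, and in limma an unadjusted p of 0.12 and an adjusted p of 0.995.

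The remaining members were Ifi35, Ifi44, Xaf1, Lgals3bp and Sp100, with log2 differences between -0.44 and 0.09. Sp100, a component of nuclear bodies, had 923, 923, 1010, 786 and 878 normalized counts in Ppef2+/+ and 927, 958, 756, 798 and 902 in Ppef2-/- libraries. Xaf1, an antagonist of inhibitors of apoptosis, had 43.8, 40.9, 21, 23.1 and 34.9 in Ppef2+/+ libraries. In Ppef2-/- libraries Xaf1 had 20.9, 26.0, 21.5, 31.7 and 20.5. It was lower in sorts 1, 2 and 5 and higher in sort 4, with a log2 difference of -0.44 (SE 0.25, unadjusted p = 0.099 and adjusted p = 0.995 in limma). With 1 sort left out it ranged from -0.66 without sort 4 (unadjusted p = 0.026) to -0.25 without sort 1 (unadjusted p = 0.36).

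The guanylate binding proteins and the immunity-related GTPases include proteins that attack the membranes of vacuoles that hold intracellular pathogens. Of the 9 measured members, 8 had a positive log2 difference, and the median was 0.23, compared to -0.01 for the other 36 members. The 3 members past an unadjusted p of 0.05 all belonged here, and as they were counted after their values were seen, this grouping is a description without a test. Gbp2 lies on chr3:142620602-142638008 (GRCm38, GENCODE M21, plus strand), in the same region as Gbp3 (chr3:142560026-142573209). Gbp2 had 72.6, 90.0, 97.7, 61.0 and 77.7 normalized counts in Ppef2+/+ libraries. Gbp2 had 92.9, 87.4, 121, 165 and 86.3 in Ppef2-/- libraries. Gbp2 was higher in Ppef2-/- in 4 of 5 sorts, with means of 79.8 ± 14.4 and 110 ± 33.5 (SD, n = 5). The log2 difference was 0.50 (SE 0.19, 95% interval 0.10 to 0.89, unadjusted p = 0.016 and adjusted p = 0.995 in limma), and without sort 4 it was 0.19 with an unadjusted p of 0.21. Gbp2 also missed an unadjusted p of 0.05 under limma's other variance models, with 0.10 without the trend and 0.059 with a robust trend.

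Irgm1, Tgtp1 and Ifi47 lie in the same region of chromosome 11, at chr11:48861968-48871683, chr11:48985327-48994172 and chr11:49076587-49096974. Tgtp1 had 126, 105, 117, 113 and 152 normalized counts in Ppef2+/+ libraries. It had 146, 158, 122, 159 and 152 in Ppef2-/- libraries, higher in 4 of 5 sorts, with a difference of 0.00 in sort 5. The log2 difference was 0.26 (SE 0.11, 95% interval 0.02 to 0.50, unadjusted p = 0.032 and adjusted p = 0.995 in limma). The log2 difference was 0.21 without sort 4, with an unadjusted p of 0.12 in limma, and 0.19 without sort 2, with an unadjusted p of 0.15, and the call was also lost, narrowly, without sort 1. Tgtp1 shares 79.4% of its 50-base windows with Tgtp2, so that the counting could split reads between both genes and its value is uncertain. Ifi47 had 49.3, 40.9, 27.1, 25.9 and 46.8 in Ppef2+/+ libraries. Ifi47 had 45.5, 54.4, 39.3, 59.2 and 57.5 in Ppef2-/- libraries. The log2 difference was 0.43 (SE 0.20, 95% interval 0.02 to 0.84, unadjusted p = 0.040 and adjusted p = 0.995 in limma). Without sort 4 it was 0.26 with an unadjusted p of 0.23 in limma, and the unadjusted p was also above 0.05 without sort 2 (0.071), sort 3 (0.064) or sort 5 (0.057). Irgm1, which directs autophagy to vacuoles, had 245, 221, 94.7, 136 and 198 in Ppef2+/+ and 261, 223, 155, 234 and 175 in Ppef2-/- libraries, and its log2 difference was 0.23 (SE 0.11). In exact permutation tests within sorts Gbp2, Tgtp1 and Ifi47 each had p = 0.125 (two-sided).

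Sort 4 stood out for these GTPases. There all 9 were higher in Ppef2-/-, by a median of 0.72 on the log2 scale, whereas 4 or 5 of the 9 were higher in each of the other sorts, with medians between -0.01 and 0.13. With the sort means kept in the values, the median of sort 4 was 0.50. The summed level of the 9 genes was 919 in the Ppef2+/+ and 1500 in the Ppef2-/- library of sort 4, and between 955 and 1070 in the other 8 libraries. Both libraries of sort 4 thus lay outside the range of the others, in opposite directions. The Ppef2+/+ library of sort 4 held the lowest value of Gbp2, Irgm2, Iigp1 and Ifi47, and the Ppef2-/- library held the highest value of Gbp2, Gbp3, Gbp4, Iigp1, Tgtp1 and Ifi47. Their difference is that of 1 pair of libraries and has no replicate. Iigp1 had 53.4, 55.9, 61.6, 27.7 and 44.8 in Ppef2+/+ libraries. Iigp1 had 60.8, 55.5, 41.2, 127 and 37.0 in Ppef2-/- libraries. Its log2 difference of 0.64 (SE 0.39) was 0.30 with the sort means put back and 0.43 with voom on whole reads, and it became -0.13 without sort 4. Gbp4 had 242, 263, 513, 402 and 249 in Ppef2+/+ and 169, 257, 382, 569 and 367 in Ppef2-/- libraries, with a log2 difference of 0.06 (SE 0.13) that became -0.10 without sort 4.

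Read counts set the precision of the values of sort 4. The level of Iigp1 rested on 30 reads in Ppef2+/+ and 120 reads in Ppef2-/-, a ratio of 4.57 with a 95% exact Clopper-Pearson interval of 3.04 to 7.07. The ratio of Gbp2 was 2.70 (2.01 to 3.66, from 66 and 156 reads), that of Ifi47 2.29 (1.43 to 3.74), that of Oasl1 2.07 (1.52 to 2.83) and that of Irgm1 1.72 (1.39 to 2.13). In sort 4 the interval of 10 members lay above 1 and that of 2 members (Ifit3 and Dhx58) below 1, and 6 of the 10 were GTPases. These were 22.2% and 4.44% of the members, and 10.6% and 9.78% of the 9657 genes with reads. In sorts 1, 2, 3 and 5 the GTPases above 1 numbered 0, 1, 1 and 1. The intervals cover counting error only, and reads without molecular identifiers are not independent molecules. Markers of other cells also differed between the libraries of sort 4. With the sort means kept, the sums in Ppef2+/+ and Ppef2-/- were 2160 and 1870 for plasmacytoid dendritic cells, 2860 and 2500 for cDC2, 2050 and 1970 for macrophages and monocytes, 320 and 335 for B cells, and 165 and 203 for erythroid cells and platelets. Those of mature migratory dendritic cells were 3310 and 3330 over the 10 of 18 markers with whole reads. The deposited values of all 18 summed to 21100 and 24200. These 18 include Cxcl9, also listed here as a further interferon-stimulated gene and higher in Ppef2-/- in sort 4, and its share in the sums was not separated. The part of these cells in the result was not tested.

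**Figure D3:**
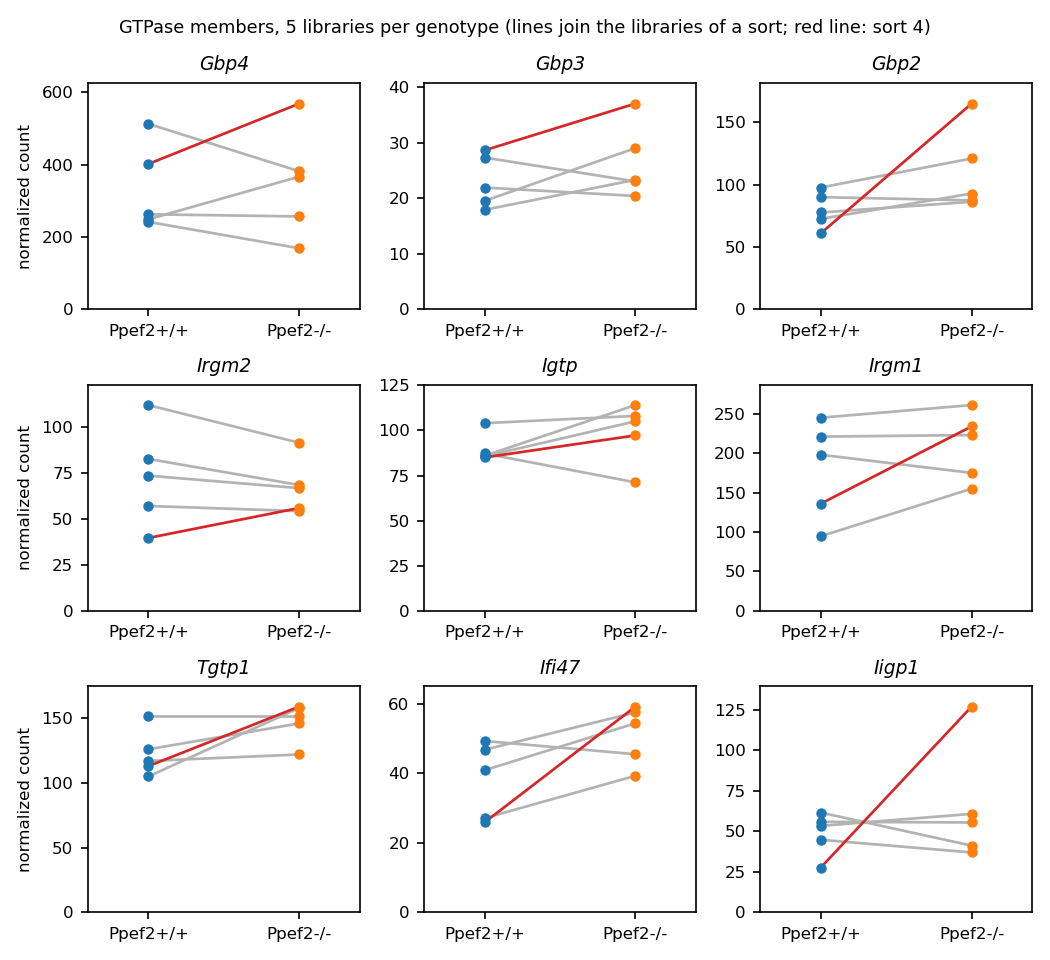
Normalized counts (y axis, from 0) of the 9 GTPase members in the 5 Ppef2+/+ and 5 Ppef2-/- libraries (x axis), with a line for each sort. The red line of sort 4 rises in all 9 panels, most steeply for Iigp1 (27.7 to 127) and Gbp2 (61.0 to 165), while the grey lines of the other sorts go both ways.

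In sort 5 other members stood apart, in the other direction. The Ppef2+/+ library of sort 5 held the highest value of 13 of 45 members (28.9%), compared to 8.51% of all genes with reads. These were Irf7, Isg15, Isg20, Ifit3, Ifi35, Ifi44, Dhx58, Mx1, Mx2, Oas3, Oasl2, Lgals3bp and Ifitm3, which were named after their values were seen, and 0 of the 9 GTPases was among them. Ifi44 had 56.8 normalized counts there and 13.5 to 30.7 in the other 9 libraries. The same library had the highest sum of all 10 for markers of plasmacytoid dendritic cells (2400, with 1870 to 2310 in the others). It also had the highest sums for B cells (439, with 275 to 401) and erythroid cells and platelets (278, with 119 to 234). The list of plasmacytoid dendritic cells includes Bst2, which is also listed here as a further interferon-stimulated gene. Bst2 had 379 normalized counts in this library and 234 to 315 in the others. Bst2 thus made up 379 of the 2400 in this library. It made up 270 of the 2310 in the Ppef2-/- library of sort 5, which had the next highest sum. Without Bst2 the Ppef2+/+ library of sort 5 no longer had the highest sum of these markers. The part of these cells in the result was not tested. The ratio of Ppef2-/- to Ppef2+/+ in sort 5 was 0.507 for Ifi44 (95% exact interval 0.292 to 0.849), 0.477 for Mx2 (0.313 to 0.711) and 0.547 for Isg15 (0.359 to 0.818). In sort 3 both libraries were low. The Ppef2+/+ library held the lowest value of 10 members, with Stat2, Irf1, Irf7 and Irf9 among them, and the Ppef2-/- library that of 11 members, or 22.2% and 24.4%, compared to 15.6% and 8.56% of all genes with reads.

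**Figure D4:**
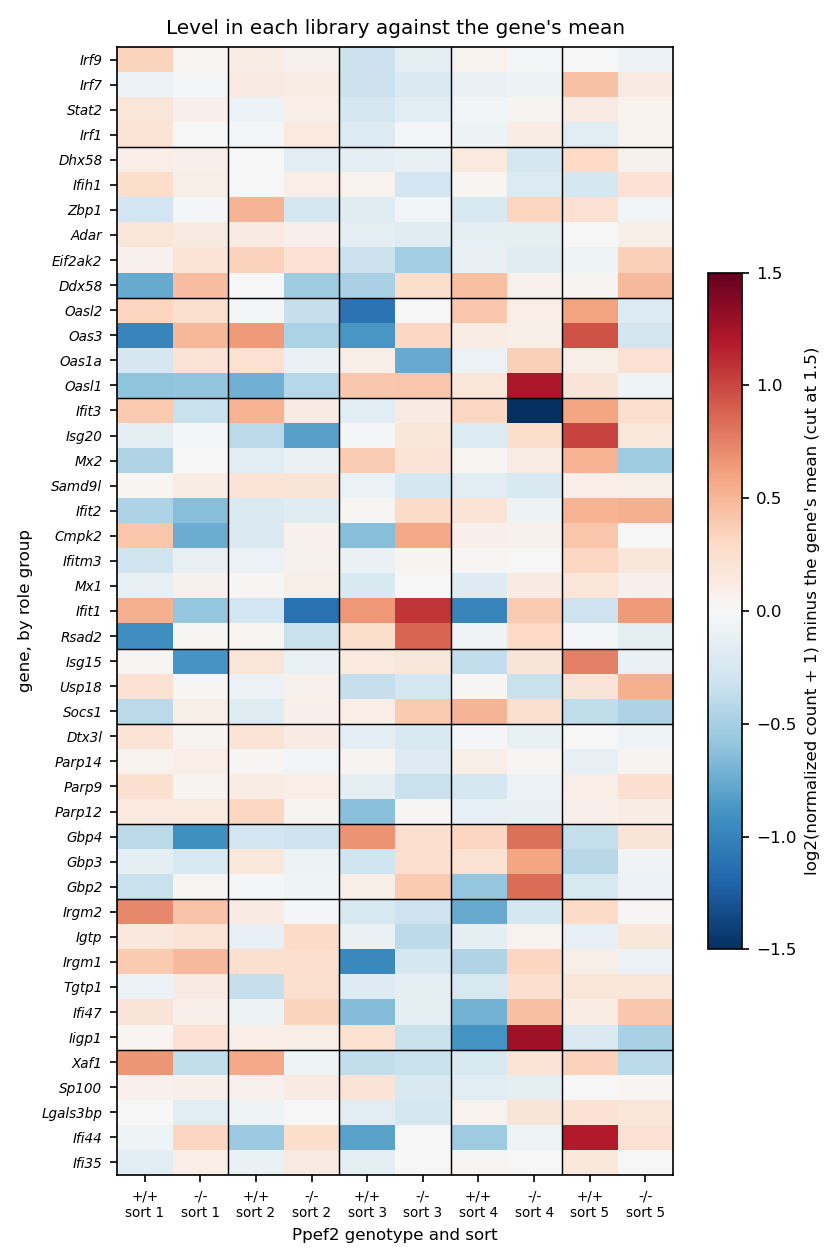
Level of each member in each library as log2(normalized count + 1) minus the mean of the gene (colour, cut at 1.5), with libraries ordered by sort and genotype (x axis) and members by role group (y axis). The GTPase rows are blue in the Ppef2+/+ and red in the Ppef2-/- library of sort 4 for Gbp2, Irgm1, Tgtp1, Ifi47 and Iigp1, and Isg15, Isg20, Oas3 and Ifi44 are reddest in the Ppef2+/+ library of sort 5.

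The spread between sorts limited what could be resolved. The SD of the within-sort log2 differences had a median of 0.32 over the 45 members and 0.24 over the 9657 genes with reads. Among genes with a mean of 50 or more these medians were 0.22 for 31 members and 0.20 for 7380 genes. The 9 GTPases had 0.36, at a median level of 94.3 normalized counts.

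Genes around the module gave values on the same scale. None of 13 interferon genes had a row, and they were not analysed here. Of 22 sensors and adaptors upstream of interferon, 2 were higher in Ppef2-/- and 0 lower at an unadjusted p under 0.05 in limma, with 2.30% and 1.99% among all genes, namely Tlr4, the endotoxin receptor, with 0.69 (SE 0.22, unadjusted p = 0.0055), and Tank, an adaptor of the kinase Tbk1, with 0.22 (SE 0.07, unadjusted p = 0.0054). Of 17 negative regulators, 2 were higher and 0 lower by the same test, with the same shares among all genes, namely Socs3, an inhibitor of Jak kinases, with 0.48 (SE 0.14, unadjusted p = 0.0033), and Nlrc5, which also activates MHC class I genes, with 0.14 (SE 0.06, unadjusted p = 0.029). The adjusted p of each was 0.995.

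Of 82 further interferon-stimulated genes in the table, 7 were higher and 3 lower at an unadjusted p under 0.05, with 2.30% and 1.99% among all genes, and their median log2 difference was 0.02. Gvin1, a very large interferon-inducible GTPase, had the lowest p-value, and the chemokine Cxcl9 was also among the 7. Gvin1 had 305, 297, 197, 219 and 262 normalized counts in Ppef2+/+ libraries. Gvin1 had 355, 381, 233, 301 and 299 in Ppef2-/- libraries, higher in 5 of 5 sorts, with a log2 difference of 0.29 (SE 0.08, unadjusted p = 0.0014 and adjusted p = 0.872 in limma). Cxcl9 had mean deposited values of 1988 and 2470, a log2 difference of 0.32 (SE 0.09, unadjusted p = 0.0022 and adjusted p = 0.995 in limma) and a difference of 1.00 in sort 4 against 0.06 to 0.19 in the other sorts. The 5 measured of 9 further guanylate binding protein and immunity-related GTPase genes, Tgtp2 among them and grouped after their values were seen, had a median log2 difference of 0.16. Their medians within sorts 1 to 5 were -0.04, -0.11, 0.09, 0.08 and 0.34. In the same order, 2, 1, 4, 3 and 4 of the 5 were higher in Ppef2-/-. Sort 4 thus did not stand out for these 5 genes.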

How the data were processed

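RNA of sorted CD8+ cDC1 was made into polyA libraries without strand information and sequenced as single-end reads of 50 bp. The authors aligned the reads to mm10 (HISAT in the paper, TopHat2 2.0.3 in the submitters' processing notes), counted reads per RefSeq gene in Partek 6.6, normalized the counts with DESeq2, set values below 1 to 1 and removed genes with a mean under 10 in both genotypes. These deposited values are a signal of normalized, not raw, counts. All 10 columns were used and 0 columns were left out.

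Ppef2+/+ plus Ppef2-/- gave an equal total in every sort for the 10721 genes with no value at 1 (largest relative spread 6.3e-06). Sort means had thus been removed, and in each of the 5 sorts the paired libraries deviated from the mean of their genotype with a correlation of -1.0. The replicate number is the sort in the labels. A fit without the sort then understates the error, and the main fit had the sort as a block, unlike the one-way model of the paper. Replicates are separate sorts of pooled mice.

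Whole reads were calculated back for 9657 of 9723 genes tried, all 45 members included, by the value of 1 read in each library (0.464 to 1.50 normalized counts). On simulated data, 588 of 588 resolved genes had the reads that had been drawn. Levels per library are reads times this value, so that sort means are kept. Genotype differences and differences within a sort were calculated on log2(deposited value + 1), where the added 1 shrinks and the removed sort mean can shrink or stretch changes of low genes, with limma 3.58.1 in R 4.3.3 (lmFit, eBayes with a trend), as a two-sided test adjusted by Benjamini-Hochberg over 10767 genes. Intervals of read ratios are exact Clopper-Pearson intervals at 95%. Exon lengths and read sharing (windows of 50 bases) came from GENCODE M21.

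The members, role groups, lists and tests were chosen with earlier results of these data known. Named members are, in each role group, the one with the highest mean and the one with the lowest p, every member with an unadjusted p under 0.05, and the 3 highest and 3 lowest log2 differences. Of each pathway list up to 3 genes with an unadjusted p under 0.05 were named. Other names were given after their values were seen. The list of interferon receptors and kinases is not reported here. Alternatives were no block, pseudocounts of 0.5 and 10, a mean of at least 50, other scalings, other variance models, sort means put back, limma's voom on whole reads and each sort left out.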

Additional observations from a re-analysis of the deposited data

Results flagged for a closer look

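Of 36 groups of 5 libraries (18 named members in 2 genotypes, levels with the sort means kept), 1 held a value far from the rest. In sort 4 the Ppef2-/- library had 127 normalized counts of Iigp1, and the other Ppef2-/- libraries had 37.0 to 60.8, a gap of 0.734 of the whole range against a critical value of 0.71. Among groups not picked by their values, chance flags about 1 in 20, or 1.8 of 36. Iigp1 was named for its high log2 difference, to which this same value contributes, so that this rate need not hold for it.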

How the results depend on the processing

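Over 15 alternatives, the count of members with an adjusted p under 0.05 was 0 in each, and the median log2 difference of the module lay between -0.01 and 0.06. Within sorts, it lay between -0.01 and 0.03 in sort 1, -0.03 and -0.01 in sort 2, 0.03 and 0.10 in sort 3, 0.07 and 0.09 in sort 4 and -0.07 and -0.04 in sort 5. The count of members with an unadjusted p under 0.05 was 3, and it rose to 9 without the replicate block (Dhx58, Dtx3l, Gbp2, Ifi47, Ifit3, Irgm1, Mx1, Tgtp1 and Xaf1), where 1888 of all genes passed (17.5%) instead of 462, and 103 instead of 1 had an adjusted p under 0.05 (0.957%). By construction that fit counts degrees of freedom that the removal of the sort means had used. With the sort means put back and the replicate block, 5 members passed (Gbp2, Ifi47, Irgm1, Mx1 and Tgtp1), and the cause was not tested. With 1 sort left out, 2 to 4 members passed. Without sort 4, 0 of the 9 GTPases passed and Isg15 and Xaf1 did, and the median of the GTPases was 0.13 instead of 0.23. Gbp2 did not pass without a variance trend or with a robust trend.

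Of 267 recomputed log2 differences of the 18 named members, 11 turned in sign, all with 1 sort left out. The ranges over the sorts left out were -0.03 to 0.01 for Adar, -0.01 to 0.49 for Oasl1, -0.08 to 0.11 for Usp18, -0.07 to 0.02 for Parp14, -0.10 to 0.22 for Gbp4, -0.09 to 0.03 for Sp100 and -0.13 to 0.93 for Iigp1. The cause was not tested. Depth limits the low members most, and the lowest level, that of Ifit3 in 1 library, rested on 2 reads.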
